A study of Mus musculus with 11 samples.

Results

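The 10 genes described here encode precursors of retinal neuropeptides, and they are Cartpt, Npy, Penk, Sst, Vip, Tac1, Cck, Crh, Gal and Adcyap1. They were taken by name from the 25311 genes of the count matrix, and all 10 were present. Retinas of 11 C57BL/6J mice were dissociated with papain on postnatal day 10 (P10), and inDrop v3, a droplet method, was used to count the RNA molecules of each cell by their unique molecular identifiers (UMIs). The control mice (n = 3) received the PBS vehicle, and the Phase I ROP mice (n = 3) received repeated injections of streptozotocin (STZ), a toxin of pancreatic beta cells that raises blood glucose and delays growth of the retinal vessels. Mice of the diet groups were Phase I ROP mice as well, so they carried the same STZ treatment, and were nursed by dams fed an isocaloric feed enriched in ω-3 (n = 2) or ω-6 (n = 3) long-chain polyunsaturated fatty acids (LCPUFA). No control mouse was fed either diet, the mice were wild type, pups of both sexes were used, and the methods describe the mice of each comparison as littermates. The questions were how these transcripts differed in Phase I ROP vs. control, and between mice fed ω-6 and ω-3 LCPUFA.

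Neuropeptides are cut from longer precursor proteins in the secretory pathway, stored in dense-core granules and released to act on G protein-coupled receptors, mostly more slowly than GABA or glycine. In the retina they are known as markers of small sets of amacrine cells, the inhibitory interneurons of the inner retina, and of some ganglion cells, the output neurons. Most peptide-bearing amacrine cells are wide-field neurons that also use GABA.

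Several neuropeptide genes are textbook targets of cAMP signaling through the cAMP response element, with the full letters TGACGTCA, a shorter form TGACGT and the core TGACG. The promoter windows of 5 members are printed because 3 of them (Cartpt, Npy and Tac1) passed the tests below, while Vip and Sst are shown for their matches to it. The windows are RefSeq sequences of GRCm38.p6 from 250 bases before to 50 bases after the gene start, 5′ to 3′ on the strand of the gene, and capitals mark these motifs on either strand, where the reverse of the core reads CGTCA. The windows lie at chr13:99900634-99900933 (minus strand) for Cartpt, chr6:49822460-49822759 (plus) for Npy, chr6:7554811-7555110 (plus) for Tac1, chr10:5638968-5639267 (plus) for Vip and chr16:23890795-23891094 (minus) for Sst. In GENCODE M21 of the same genome Cartpt spans chr13:99898489-99901091, Npy chr6:49822710-49829507, Tac1 chr6:7554879-7565834, Vip chr10:5639218-5647617 and Sst chr16:23889573-23890958, so that Cartpt, Tac1 and Sst start further upstream there.
Cartpt: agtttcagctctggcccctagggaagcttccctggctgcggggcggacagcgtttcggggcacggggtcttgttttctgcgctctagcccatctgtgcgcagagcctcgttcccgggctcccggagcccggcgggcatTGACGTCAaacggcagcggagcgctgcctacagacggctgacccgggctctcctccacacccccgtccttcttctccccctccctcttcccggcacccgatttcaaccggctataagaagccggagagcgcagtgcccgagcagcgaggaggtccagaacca
Npy: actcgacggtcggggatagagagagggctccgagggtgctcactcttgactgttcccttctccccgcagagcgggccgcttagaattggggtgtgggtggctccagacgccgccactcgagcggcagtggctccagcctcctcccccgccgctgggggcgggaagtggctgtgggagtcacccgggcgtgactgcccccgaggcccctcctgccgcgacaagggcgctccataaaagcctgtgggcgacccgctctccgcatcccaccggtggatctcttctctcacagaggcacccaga
Tac1: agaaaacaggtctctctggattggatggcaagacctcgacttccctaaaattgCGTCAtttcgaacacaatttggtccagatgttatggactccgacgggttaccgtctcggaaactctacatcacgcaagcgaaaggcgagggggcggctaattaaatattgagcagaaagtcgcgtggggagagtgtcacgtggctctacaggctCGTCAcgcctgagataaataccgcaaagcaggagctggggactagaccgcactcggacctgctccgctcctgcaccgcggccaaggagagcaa
Vip: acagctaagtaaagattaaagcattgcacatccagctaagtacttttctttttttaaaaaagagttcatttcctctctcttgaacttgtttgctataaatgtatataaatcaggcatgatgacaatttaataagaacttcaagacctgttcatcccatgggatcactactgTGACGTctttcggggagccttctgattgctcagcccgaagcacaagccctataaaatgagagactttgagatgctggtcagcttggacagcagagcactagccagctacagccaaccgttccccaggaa
Sst: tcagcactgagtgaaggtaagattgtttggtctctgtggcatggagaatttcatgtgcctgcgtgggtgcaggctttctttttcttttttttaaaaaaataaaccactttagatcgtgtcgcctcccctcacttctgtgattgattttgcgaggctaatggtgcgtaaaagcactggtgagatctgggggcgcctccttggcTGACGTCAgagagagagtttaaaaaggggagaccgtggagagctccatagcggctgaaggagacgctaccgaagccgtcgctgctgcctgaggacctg
Of the 10 members, 8 had an entry, and Penk and Crh had none. The full TGACGTCA was found in Cartpt, 112 bases upstream of the start, and in Sst, 48 bases upstream, against 2.03% of the 27025 genes with a window. The shorter TGACGT, which those full matches contain, was found in 4 members (Cartpt, Sst, Vip and Adcyap1), against 8.37% of genes. The core TGACG was found in 7 of the 8, all but Npy, against 23.05% of genes. The letters TATAAA were found in Vip and Adcyap1, against 15.7% of genes. These are matches of letters within the windows only.

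After filtering, 20033 of 20067 cells were kept, with 2563064 to 6516478 UMIs per mouse and 3287 cells in clusters assigned to amacrine cells by their markers. The control mice stood apart from the other 8 as a group. In their amacrine cells the summed level of 20 immediate early genes was 254 to 375 CPM (UMIs per 1000000), against 2655 to 3909 in Phase I ROP and 3104 to 4671 on the diets. The ribosomal RNA of mitochondria, mt-Rnr2, held 3.31 to 4.60% of their UMIs against 0.332 to 1.10% in all other mice, and rods made up 28.1 to 35.8% of control cells against 46.7 to 63.4% elsewhere. Every control mouse showed these features, so treatment and any difference in tissue preparation cannot be told apart. Of 18872 cell barcodes, 1157 occurred in more than 1 mouse. The largest cluster of the amacrine class, with 1356 cells, had 5 of 11 amacrine markers detected and none of them among its 10 leading genes.

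The 10 members differed widely in how many molecules were counted and in how many cells held them. Cartpt, the precursor of the cocaine- and amphetamine-regulated transcript peptides, gave 7944 UMIs, and these came from 290 of the 20033 cells. A set of 118 cells with 5 or more UMIs held 96.6% of them, and 23 cells held 50% or more. Npy, the precursor of neuropeptide Y, gave 5920 UMIs in 539 cells, of which 220 cells with 5 or more UMIs held 91.4%. Tac1, the precursor of substance P and neurokinin A, gave 1424 UMIs in 233 cells, and 86 cells with 5 or more held 81.7%. All 3 genes were thus counted mostly in a small set of cells with many molecules each. Vip, the precursor of vasoactive intestinal peptide, gave 587 UMIs in 279 cells, of which 25 cells held 50.6%. Penk, the precursor of the enkephalins, gave 223 UMIs in 75 cells, of which 10 cells held 50.2%. The remaining members were rare, with 106 UMIs for Sst (somatostatin) in 10 cells, 70 for Adcyap1 (PACAP) in 35, 66 for Cck (cholecystokinin) in 36, 62 for Gal (galanin) in 44 and 37 for Crh (corticotropin-releasing hormone) in 15 cells. UMIs were read from the 3′ end and carry no correction for length, so levels were not compared between genes.

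Amacrine cells held most molecules of 6 members. Of Cartpt, 7238 UMIs (91.1%) were in amacrine cells, in 188 of 3287 cells, a share of 5.72% (exact 95% binomial interval 4.95 to 6.57%, which covers counting error only). Ganglion cells held 523 more, in 34 of 96 cells (35.4%, 25.9 to 45.8%). Across mice the Cartpt level, before TMM scaling, ranged from 127 to 1261 CPM in amacrine cells and from 31.4 to 2348 CPM in ganglion cells, so these classes overlapped, and bipolar cells lay between 0 and 40.1 CPM. Control replicate 1 alone gave 258 of the 523 ganglion UMIs. Of Tac1, 1170 UMIs (82.2%) were in 183 amacrine cells and 219 (15.4%) in 25 ganglion cells, and the ranges over mice, 48.2 to 155 CPM and 0 to 502 CPM, overlapped too. Of Crh, 32 of 37 UMIs were in 13 amacrine cells, 13 of them in a single cell.

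Npy was also counted in horizontal cells, the interneurons of the outer retina. Only 31 horizontal cells were captured, yet 30 of them held Npy, with 1630 UMIs or 27.5% of all. Amacrine cells held 3808 UMIs (64.3%) in 253 cells, and Müller glia, the radial glia of the retina, held 418 (7.06%) in 204 of 1425 cells. Over the 10 mice with a horizontal cell the Npy level there was 2196 to 7349 CPM, above the 183 to 507 CPM of amacrine cells and the 50.8 to 162 CPM of Müller glia in any mouse. These 3 ranges did not overlap, and Npy was found in Müller glia of all 11 mice. The cell with the most Npy, 294 UMIs, was a horizontal cell of control replicate 3, which gave 553 of the horizontal UMIs. Npy was itself among the leading genes of the horizontal cluster, and clustering without the 10 members gave a horizontal cluster of 31 cells as well.

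Penk was divided between amacrine cells, with 126 UMIs (56.5%) in 51 cells, and Müller glia, with 88 (39.5%) in 17 cells. The glial Penk came largely from a pair of mice, with 40 UMIs in Phase I ROP replicate 3 and 33 in ω-6 replicate 3, and 28 of the latter lay in a single cell. No Penk was counted in rods, 0 of 10178 cells at a median depth of 1061 UMIs, which allows a share of rods with a UMI of up to 0.0295%. Vip was the member with the broadest low signal. Amacrine cells held 386 of its UMIs (65.8%) in 85 cells, while 102 of 10178 rods (1.00%), 30 cones (2.66%) and 40 bipolar cells (1.11%) held 1 or a few molecules each. The most Vip in any rod was 4 UMIs, and for every other member the share of rods was at most 0.285%. The share of rods with Vip was 0 to 0.453% in control mice, 0.567 to 0.904% in Phase I ROP and 1.01 to 2.36% on the diets.

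Most Adcyap1 UMIs were counted in ganglion cells. Of 70 Adcyap1 UMIs, 60 (85.7%) were in 28 of the 96 ganglion cells (29.2%, exact 95% binomial interval 20.3 to 39.3%), from 10 mice. Of 106 Sst UMIs, 86 (81.1%) were in 1 ganglion cell of control replicate 2, so its level describes that cell. That cell held 51113 UMIs in all, 64 of Cartpt, 5 of Adcyap1, 3 of Gal and 1 of Vip, with 39 of Slc17a6 (the vesicular glutamate transporter of ganglion cells) and 150 of Nefl (a neurofilament subunit), and none of Gad1 (a GABA-synthesizing enzyme). Amacrine cells held 13 Sst UMIs in 5 cells from 5 mice. Gal was divided between bipolar cells, with 26 UMIs in 20 cells, and ganglion cells, with 23 UMIs in 13 cells (13.5%). Of 66 Cck UMIs, amacrine cells held 29 and bipolar cells 24, of which 12 came from Phase I ROP replicate 2.

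**Figure D1:**
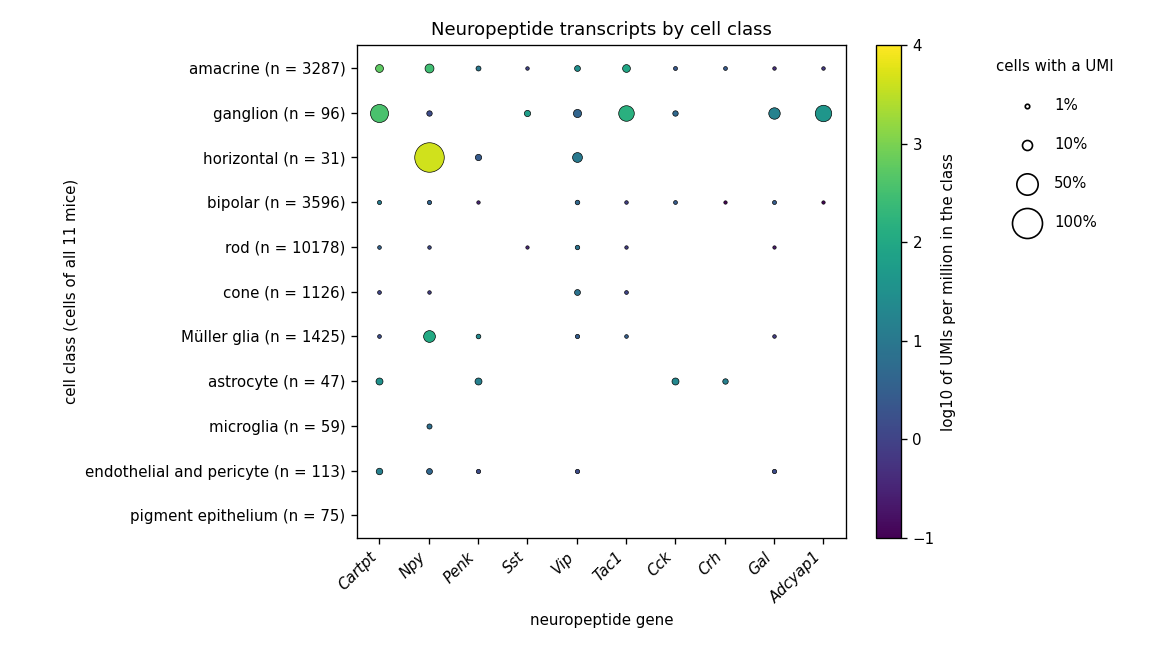
Level of each neuropeptide gene by cell class, over all 11 mice, with classes in rows and genes in columns. Color gives log10 of the CPM of the class before TMM scaling, dot area the percent of cells with a UMI, and no dot means that none was counted. Npy stands out in horizontal cells (96.8% of cells) and Adcyap1 in ganglion cells (29.2%).

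Amacrine cells were deeper than rods, and the difference in shares was looked at again at equal depth. When each cell was thinned to 1000 UMIs, 3061 amacrine cells (median depth before thinning 3231) and 5565 rods (median 1472) were left. Cartpt was then found in 4.12% of amacrine cells against 0.198% of rods, Npy in 5.78% against 0.126%, and Tac1 in 3.27% against 0.0898%. Vip was found in 1.24% against 0.665%, the narrowest gap of these 4. Before thinning, at median depths of 3053 and 1061 UMIs, the amacrine and rod shares were 7.70 and 0.167% for Npy, 5.57 and 0.0983% for Tac1, and 2.59 and 1.00% for Vip.

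To see which amacrine cells carried the transcripts, the amacrine cells were clustered again with the 10 genes left out, which gave 21 sub-clusters. These are described by their leading genes, and no test was made between them. Sub-cluster 15, a group of 53 cells led by Slc35d3, Rprm and Pou3f3, held 5789 Cartpt UMIs, 80.0% of the amacrine total, and every one of its cells held Cartpt. Gad1 was found in 96.2% of these cells. Sub-cluster 11, a group of 127 cells led by Rims1, Isl1 and Pnoc, held 2474 Npy UMIs (65.0%) in 124 cells. Chat, the acetylcholine-synthesizing enzyme that marks starburst amacrine cells, was found in 63.8% of this sub-cluster, and Gad1 in 97.6%. The sub-clusters that held most of Cartpt and most of Npy were therefore separate.

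Sub-cluster 2, with 326 cells led by Cbln4, Cngb3 and Syt6 and Gad1 in 89.3%, held a mixture of members. It held 336 Vip UMIs (87.0% of the amacrine total) in 47 cells, 766 Tac1 UMIs (65.5%) in 74 cells, 812 Npy UMIs (21.3%), 892 Cartpt UMIs (12.3%) and 27 Crh UMIs (84.4%). At a finer clustering resolution of 1.5 the largest Tac1 share of any sub-cluster was 38.6%, so the cells with Tac1 were split there. Tac1 was also held by sub-cluster 16 (led by Htr2c, Gbx2 and Kctd12), with 174 UMIs in 28 of 53 cells, and by sub-cluster 18 (led by Cxcl14, Rhox5 and Pcdh20), with 68 UMIs in 25 of 43 cells. Penk was held mostly by a further pair of sub-clusters. Sub-cluster 13, with 88 cells led by A930001A20Rik, Slc17a8 and Adh6b, held 66 Penk UMIs (52.4%) in 24 cells, and Slc17a8, the third vesicular glutamate transporter, was found in 45.5% of its cells and Gad1 in 1.14%. Sub-cluster 1, with 359 cells led by Tshz1, Zfhx3 and Pcdh17, held 43 Penk UMIs (34.1%) in 14 cells, and Gad1 was found in 66.6% of its cells.

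**Figure D2:**
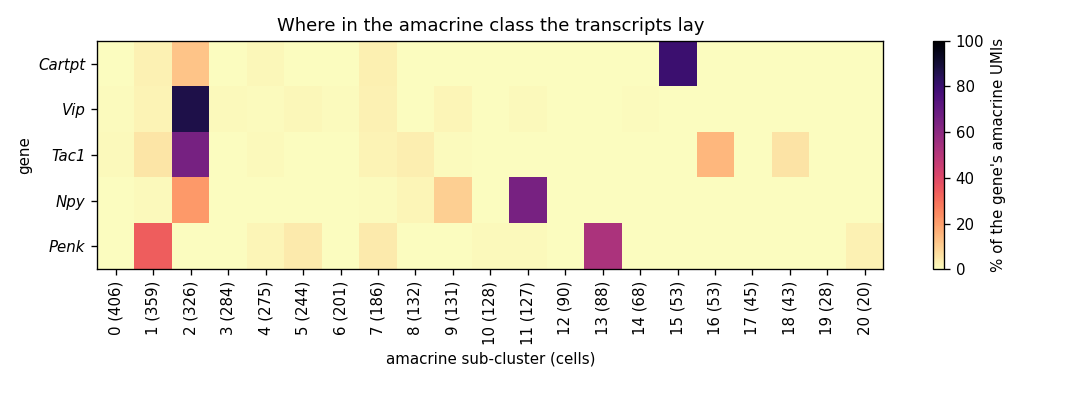
Share of the amacrine UMIs of 5 neuropeptide genes, in percent, held by each amacrine sub-cluster over all 11 mice, with genes in rows and sub-clusters (number of cells in brackets) in columns. Cartpt concentrates in sub-cluster 15 (80.0%), Npy in sub-cluster 11 (65.0%), Penk in sub-cluster 13 (52.4%), and Vip and Tac1 in sub-cluster 2 (87.0 and 65.5%).

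Within single amacrine cells, pairs of members differed in how often they were found together, and no test was made. At 2 or more UMIs of each, Cartpt was found in 138 cells (4.20% of the class) and Npy in 218 (6.63%). Both were found in 2 cells, 0.917% of the Npy cells. Cartpt and Tac1 shared 4 cells, 3.25% of the Tac1 cells, which is near the Cartpt share of the class. The pair found together most often was Cartpt and Vip, with 25 cells, which were 62.5% of the 40 Vip cells and 18.1% of the Cartpt cells. Npy and Tac1 shared 20 cells, 16.3% of the 123 Tac1 cells and 9.17% of the Npy cells. In ganglion cells Cartpt and Adcyap1 shared 6 cells, 50% of the 12 Adcyap1 cells and 25% of the 24 Cartpt cells. Across the 21 sub-clusters and 12290 genes, the genes whose level was most like that of a member by Pearson's r, as a description, were Ahrr (0.76) for Cartpt, A930001A20Rik (0.86) for Penk, Pter (0.80) for Vip and Luzp2 (0.81) for Tac1. The next in order were Ppp2r5a (0.75) and Ptprm (0.75) for Cartpt, Adh6b (0.76) and Slc17a8 (0.71) for Penk, Tac2 (0.72) and Gja1 (0.71) for Vip, and Bmp7 (0.77) and Nefm (0.76) for Tac1. For Npy, Espn (0.76) and Gabrd (0.76) were among the 3 most alike. The points of these correlations share libraries and cells.

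In Phase I ROP vs. control, Cartpt and Npy were lower in amacrine cells. Values are TMM-scaled CPM of the summed amacrine UMIs of a mouse unless said otherwise. Cartpt was at 1459, 900.4 and 988 CPM in control replicates 1 to 3 and at 125, 117 and 460.2 CPM in Phase I ROP replicates 1 to 3. All 3 Phase I ROP mice lay below all 3 control mice, and replicate 3 was the highest of the Phase I ROP mice. The means were 1116 ± 300.2 (SD, n = 3) and 234 ± 196 CPM (SD, n = 3), and Cartpt fell by 2.28 on the log2 scale (SE 0.37, adjusted p = 0.000326 by the quasi-likelihood test of edgeR, Benjamini-Hochberg adjusted over all genes tested). Without Phase I ROP replicate 3 the log2 difference was −3.20, and the call held.

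Npy was at 287, 547 and 605 CPM in control replicates 1 to 3 and at 239, 196 and 265 CPM in Phase I ROP. All Phase I ROP mice again lay below all control mice, although the gap to control replicate 1 was narrow. The means were 479.6 ± 169 and 233 ± 35.2 CPM (SD, n = 3 each), and Npy fell by 1.06 on the log2 scale (SE 0.22, adjusted p = 0.00154, edgeR with Benjamini-Hochberg adjustment). Of the 5 members tested in amacrine cells, 2 were thus called, both lower. Across all 11315 genes tested 38.8% were called and 20.5% were called lower, and in 23.9% all Phase I ROP mice lay below all control mice, so calls of this kind were common in this comparison.

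Tac1, Vip and Penk did not pass the test in amacrine cells. Tac1 was at 59.5, 155 and 109 CPM in control mice and 88.5, 46.8 and 86.6 CPM in Phase I ROP mice, with a log2 difference of −0.56 (SE 0.30, adjusted p = 0.147, edgeR with Benjamini-Hochberg adjustment). The groups overlapped, and without control replicate 1 Tac1 was called lower (−0.88, adjusted p = 0.0206 in the same test). Vip was at 26.3, 6.89 and 44.8 CPM in control mice and 25.4, 102 and 34.8 CPM in Phase I ROP mice (log2 difference 1.05, SE 0.53, adjusted p = 0.129 by edgeR with Benjamini-Hochberg adjustment), with wide overlap. Without control replicate 3 Vip was called higher (1.65, adjusted p = 0.0477 in the same test). Penk was at 5.44 to 13.7 CPM in control and 3.19 to 13.2 CPM in Phase I ROP mice, and the ranges were nearly the same. Cck, too rare for the test, gave 11, 7 and 2 amacrine UMIs in control replicates 1 to 3 and 0, 0 and 2 in Phase I ROP. After scaling it was lower in every Phase I ROP mouse. Replicate 3 of both groups held 2 UMIs, at 2.72 CPM in control and 1.88 CPM in Phase I ROP, so that order rests on depth and scaling. No share of equally rare genes is given beside it.

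**Figure D3:**
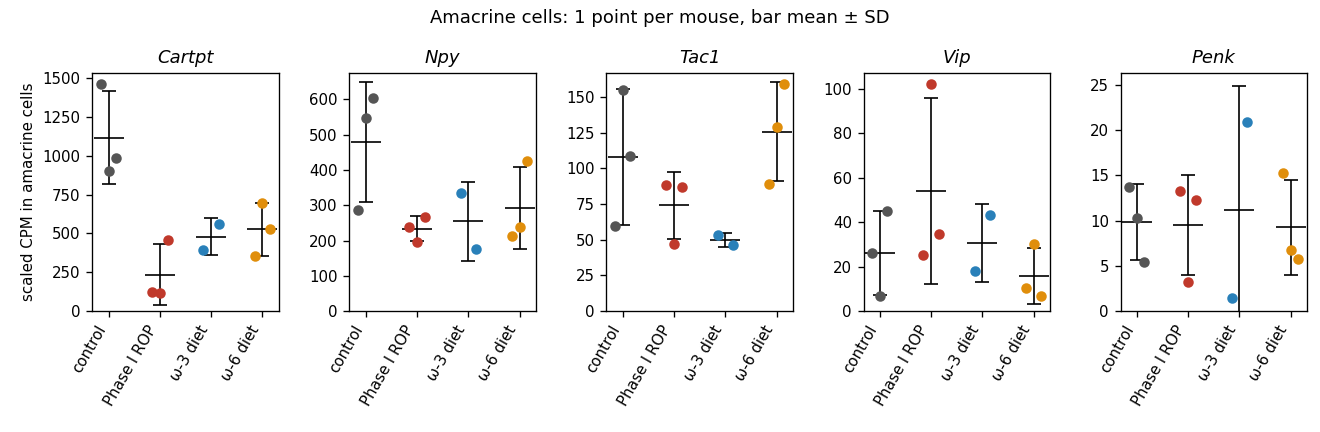
Level of 5 neuropeptide genes in the amacrine cells of each mouse, in TMM-scaled CPM on a linear axis from 0, by group, with 1 point per mouse and bars for the mean and SD. The 3 Phase I ROP mice sit between 117 and 460.2 CPM for Cartpt, all below the control mice at 900.4 to 1459.

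Scaling bore on the size of these differences. With total UMIs alone, an alternative chosen after seeing the data, the median log2 difference of all amacrine genes moved from 0.02 to 0.37, and the genes called higher and lower changed from 2066 and 2325 to 3825 and 1320. Cartpt (−1.92, adjusted p = 0.000701) and Npy (−0.70, adjusted p = 0.0118) were called lower by edgeR with Benjamini-Hochberg adjustment under that scaling as well, while Vip was called higher (1.41, adjusted p = 0.0363) and Penk changed sign (0.26).

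The number of cells with Cartpt and the molecules per cell were looked at separately. Cells with 5 or more Cartpt UMIs numbered 11, 7 and 8 in the amacrine cells of control replicates 1 to 3, with medians of 91, 62 and 75 UMIs. They numbered 4, 5 and 10 in Phase I ROP, with medians of 9.5, 20 and 46 UMIs. The numbers overlapped. The medians are raw counts of cells chosen by this gene, and the median depth of amacrine cells also differed, at 3263, 3794 and 2860 UMIs in control and 2175, 2766 and 2265.5 UMIs in Phase I ROP mice. In sub-cluster 15 the Cartpt level, as CPM of the sub-cluster before TMM scaling, was 42804, 28617 and 35741 in control mice (6, 4 and 5 cells) and 22083, 20195 and 19910.0 in Phase I ROP mice (2, 2 and 5 cells). No Phase I ROP mouse reached the lowest control mouse, at means of 20729 ± 1181 vs. 35721 ± 7093 CPM (SD, n = 3 each), and 20.8% of 432 genes with 30 or more UMIs in that sub-cluster did so too. The sub-cluster made up 0.912 ± 0.409% of Phase I ROP amacrine cells vs. 2.09 ± 0.379% of those of control mice (SD, n = 3 each), without overlap. With 3 against 3 mice the exact permutation p was 0.1 for the level and for the share, the smallest possible (adjusted p = 0.2 and 0.45). Sub-clusters were picked for holding the transcript, so these values are descriptions.

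For Npy, cells with 5 or more UMIs numbered 6, 19 and 16 in control and 13, 12 and 20 in Phase I ROP amacrine cells, with medians of 36.5, 18 and 27.5 against 15, 11.5 and 12.5 UMIs. The numbers overlapped, and the same difference in depth applies to these medians. In sub-cluster 11 the Npy level before TMM scaling was 3085, 2552 and 2901 CPM in control mice (4, 14 and 10 cells) and 2069.8, 1935 and 2090.1 CPM in Phase I ROP mice (7, 15 and 18 cells). All Phase I ROP mice were lower, at 2032 ± 84.2 vs. 2846 ± 271 CPM (SD, n = 3 each), as were 6.43% of 3420 genes there. The share of amacrine cells in this sub-cluster was 4.26% vs. 3.97%, with overlap. Penk was lower in all Phase I ROP mice in sub-cluster 13 (160.0 ± 97.1 vs. 453 ± 158 CPM, SD, n = 3 each), as were 16.2% of 691 genes there, and in sub-cluster 1 it was counted in all Phase I ROP mice (41.4 ± 25.9 CPM) and in no control mouse, where 15.9% of 7150 genes were higher in all Phase I ROP mice.

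**Figure D4:**
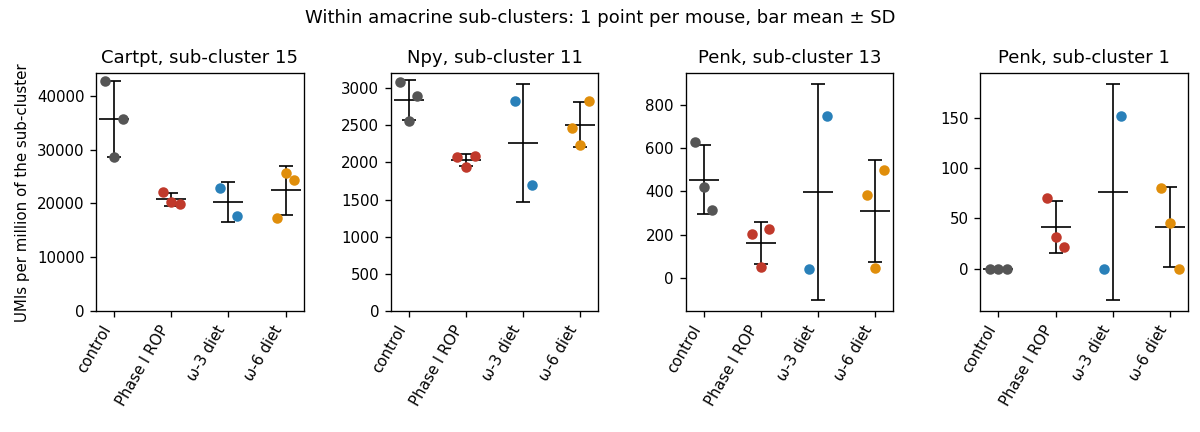
Level of Cartpt, Npy and Penk within the amacrine sub-clusters that hold most of them, in CPM of the sub-cluster before TMM scaling on a linear axis, with 1 point per mouse by group and bars for the mean and SD. Cartpt in sub-cluster 15 and Npy in sub-cluster 11 lie lower in all 3 Phase I ROP mice than in all 3 control mice.

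The share of amacrine cells with a member, at 1000 UMIs per cell, passed no test for any of the 10 genes (two-sided exact permutation test, for which 0.1 is the smallest p with 3 against 3 mice; all adjusted p = 1). For Cartpt it was 3.89 ± 1.04% vs. 4.74 ± 1.80% of control cells (SD, n = 3 each, exact permutation p = 0.6). For Npy it was 6.03 ± 0.84% and 6.01 ± 2.14% (exact permutation p = 1, n = 3 each). Tac1 was found in 3.07 ± 0.47% vs. 2.61 ± 0.52% of cells (exact permutation p = 0.3, n = 3 each), and Cck in 0.102% vs. 1.06% (exact permutation p = 0.1, n = 3 each). Without thinning, Cartpt was found in 5.50 ± 0.24% vs. 7.53 ± 1.5% of cells (exact permutation p = 0.1, adjusted p = 0.5, n = 3 each).

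Summed over the whole retina, 3 of the 6 members tested were called, all lower in Phase I ROP. In such sums, fewer cells of a type and less RNA per cell cannot be told apart, and amacrine cells made up 25.7, 27.7 and 17.6% of control cells against 16.5, 18.7 and 15.7% of Phase I ROP cells. Cartpt was at 628, 365 and 255 CPM in control replicates 1 to 3 and 37.7, 41.1 and 138 CPM in Phase I ROP, without overlap, and fell by 2.53 on the log2 scale (SE 0.44, adjusted p = 0.000755 by edgeR with Benjamini-Hochberg adjustment). Without Phase I ROP replicate 3 the log2 difference was −3.41. Tac1 was at 35.6, 61.5 and 38.5 CPM in control and 26.2, 21.3 and 27.0 CPM in Phase I ROP, also without overlap, and fell by 0.87 on the log2 scale (SE 0.22, adjusted p = 0.00738 in the same test), or by 0.58 without control replicate 2. The groups stood apart for both of these genes.

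Npy overlapped in the whole retina, at 130, 271 and 359 CPM in control and 150, 109 and 136 CPM in Phase I ROP mice. Its log2 difference was −0.97 (SE 0.28, adjusted p = 0.0133, edgeR with Benjamini-Hochberg adjustment). The call was lost without control replicate 3 (−0.63, adjusted p = 0.0504), without Phase I ROP replicate 2 (−0.81, adjusted p = 0.0744) and with DESeq2 (−0.99, adjusted p = 0.0546). Control replicate 3 held 7 of the 9 horizontal cells of the control mice. Over all 15964 genes tested 48.1% were called, 23.4% lower, and 27.0% had all Phase I ROP mice below all control mice. Vip (0.85, adjusted p = 0.106), Penk (0.75, adjusted p = 0.366) and Cck (−1.30, adjusted p = 0.231) were tested and not called by edgeR with Benjamini-Hochberg adjustment.

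In Müller glia only Npy passed the filter on low counts. It was at 149, 136 and 152 CPM in control and 95.9, 147 and 107 CPM in Phase I ROP mice, with overlap and a log2 difference of −0.28 (SE 0.28, adjusted p = 0.545 by edgeR with Benjamini-Hochberg adjustment, against 10.8% of genes called in that class). No member passed the filter in bipolar cells, rods or cones, where 45.3%, 41.1% and 18.8% of genes were called. Ganglion and horizontal cells were too few in some mice to be tested.

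Markers of some other cells moved with the groups in the amacrine sums. The summed level of 7 rod markers was 329 to 380 CPM in control, 533 to 798 CPM in Phase I ROP, 1455 to 1507 CPM on the ω-3 diet and 573 to 1075 CPM on the ω-6 diet. Of these, Gnat1 and Sag were above 0 in every mouse. The 9 ganglion cell markers were at 104 to 134 CPM in control and 151 to 225 CPM in Phase I ROP mice. The 4 horizontal cell markers overlapped, at 116 to 169 CPM in control and 114 to 152 CPM in Phase I ROP mice. The part of these in the lower Cartpt and Npy was not tested.

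Between the diets, Tac1 was higher in every ω-6 mouse, but no member passed the test. In amacrine cells Tac1 was at 53.1 and 46.4 CPM in ω-3 replicates 1 and 2 and at 89.3, 129 and 159 CPM in ω-6 replicates 1 to 3. The groups did not overlap, and means were 126 ± 34.9 (SD, n = 3) and 49.7 ± 4.78 CPM (SD, n = 2). The log2 difference was 1.35 (SE 0.24, adjusted p = 0.193 by the quasi-likelihood test of edgeR, Benjamini-Hochberg adjusted). Of 13121 genes edgeR called 0, or 0.0%, while 1298 had an unadjusted p under 0.05, and 13.6% had all ω-6 mice above all ω-3 mice. DESeq2 called 7 genes, and Tac1 was among them (adjusted p = 0.00421).

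The order was the same in the whole retina, where Tac1 was at 14.3 and 14.5 CPM with ω-3 and at 33.2, 40.5 and 52.5 CPM with ω-6. Its log2 difference was 1.55 (SE 0.22, adjusted p = 0.636 by edgeR with Benjamini-Hochberg adjustment), against 0 of 18821 genes called (0.0%), 1328 at an unadjusted p under 0.05, and 11.7% with all ω-6 above all ω-3 mice. DESeq2 called 23 genes there and gave no adjusted p for Tac1. Amacrine cells made up 14.7, 18.5 and 14.8% of cells in ω-6 replicates 1 to 3, against 13.7 and 11.5% with ω-3. In ω-6 replicate 1, a single ganglion cell gave 50 Tac1 UMIs. The part of these in the whole-retina difference was not tested. The Tac1 share of amacrine cells was 5.07 ± 2.38% with ω-6 (n = 3) and 2.19 ± 0.37% with ω-3 (n = 2) at 1000 UMIs (SD, exact permutation p = 0.2, the smallest that 3 against 2 mice allow). In sub-cluster 2 Tac1 was at 317 and 242 CPM with ω-3 and 99.7, 659 and 509 CPM with ω-6, so the groups overlapped within that sub-cluster.

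Other members overlapped between the diets. Cartpt in amacrine cells was at 395 and 562 CPM with ω-3 and 357, 694 and 526 CPM with ω-6 (log2 difference 0.15), and Npy at 334 and 176 CPM with ω-3 and 212, 237 and 425 CPM with ω-6 (0.21). Neither gene separated the diets. Vip (−0.87) and Penk (−0.31) did not pass the edgeR test either. Crh was rare and uneven, with 10.6 CPM in ω-6 replicate 3, 5.59 in replicate 2 and 0 in replicate 1, against 0.728 and 0 CPM with ω-3. Over the whole retina the fitted log2 difference of Crh was 4.18 (SE 1.56, adjusted p = 0.682 by edgeR with Benjamini-Hochberg adjustment), a value that depends on the prior count, since 1 Crh UMI was counted in amacrine cells of ω-3 mice. Npy (0.68), Penk (0.51), Cartpt (0.38), Vip (−0.24) and Adcyap1 (−0.46) were tested there too and not called (adjusted p from 0.682 to 0.877 in the same fit). Npy in Müller glia was at 86.3 and 53.6 CPM with ω-3 and 81.3, 151 and 181 CPM with ω-6 (log2 difference 0.97, adjusted p = 0.994 by edgeR with Benjamini-Hochberg adjustment), among 0.0% of genes called. Cartpt in bipolar cells (1.53, adjusted p = 0.991) and Vip in rods (0.29, adjusted p = 0.814) were tested and not called in the same fits, in which 0.0% and 0.0158% of genes were called.

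**Figure D5:**
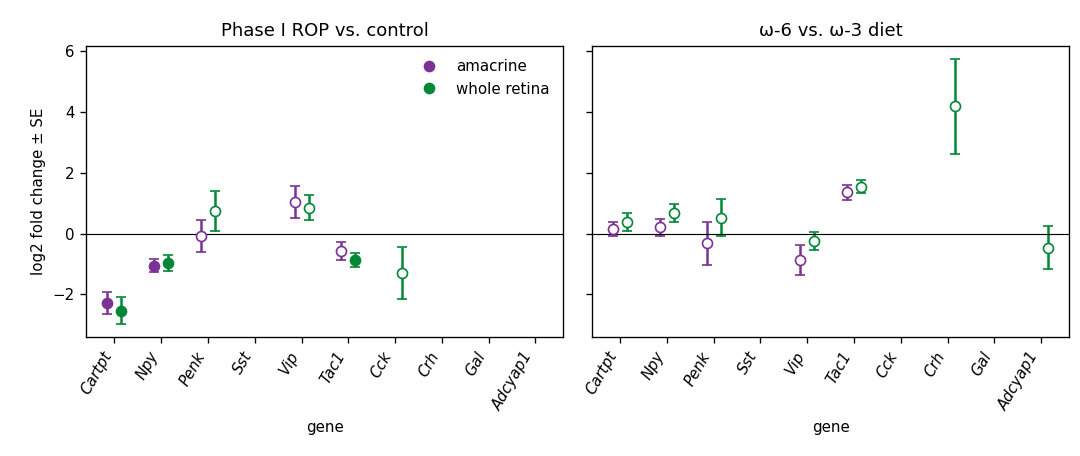
Log2 difference of the neuropeptide genes tested in each comparison, with the standard error of the edgeR fit as bars, in amacrine cells (purple) and over the whole retina (green). Filled points were called at an adjusted p under 0.05, and a gene without a point was not tested. Cartpt lies lowest in Phase I ROP vs. control (−2.28 and −2.53), and Tac1 stands highest in amacrine cells between the diets (1.35).

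The genes that process and store peptides were also measured. Of 14 genes for prohormone cleavage and granules, 12 were tested in amacrine cells of Phase I ROP vs. control, where 5 fell and 2 rose by edgeR with Benjamini-Hochberg adjustment. The median log2 difference over the 12 was −0.33, against 0.02 over all 11315 genes tested, of which 20.5% fell. These calls turned on the scaling: with total UMIs alone, chosen after seeing the data, the median was 0.03 against 0.37 over all genes, and 1 gene fell (Scg5, −0.42) and 3 rose, while DESeq2 called 3 lower and 1 higher. Scg5, a chaperone of the prohormone convertase Pcsk2, fell by 0.77 on the log2 scale (adjusted p = 0.000706), and Scg3, a granule protein, fell by 0.63 (adjusted p = 0.00171). Cpe, the carboxypeptidase that trims peptide ends, fell by 0.37 (adjusted p = 0.0244), and Pcsk1n, an inhibitor of prohormone convertase 1, fell by 0.42 (adjusted p = 0.0258). Sez6l2 rose by 0.71 (adjusted p = 0.00868), and Cadps, a priming factor of granule release, rose by 0.36 (adjusted p = 0.0422, all in the edgeR test, but 0.130 with DESeq2).

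Of 14 other peptide precursors, 4 were tested in amacrine cells, and 1 rose and 1 fell, where 38.8% of all genes were called. Vgf, the precursor of several neuronal peptides, rose by 1.72 (adjusted p = 0.00562 by edgeR with Benjamini-Hochberg adjustment), from 14.8 to 49.2 CPM. Pnoc, the nociceptin precursor and a leading gene of the Npy-rich sub-cluster 11, fell by 0.93 (adjusted p = 0.0229 in the same test), from 86.0 to 45.7 CPM, but was not called with total UMIs alone (−0.57, adjusted p = 0.124 by edgeR). Of the immediate early genes, all 16 tested rose, with a median log2 difference of 3.55, and all 16 were called higher under every scaling tried.

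Of 24 listed receptors of these peptides, with none for those of Cartpt, 3 were tested in amacrine cells and edgeR called 0. Over the whole retina 6 were tested, of which 2 rose and 2 fell in Phase I ROP by edgeR with Benjamini-Hochberg adjustment, where 48.1% of all genes were called. Vipr2, a receptor of VIP and PACAP, rose by 1.03 on the log2 scale (adjusted p = 0.00581), by 1.27 in bipolar cells (adjusted p = 0.00375) and by 1.18 in rods (adjusted p = 0.0428, but 0.0975 with DESeq2), where 45.3% of bipolar and 41.1% of rod genes were called. Cckbr, a cholecystokinin receptor with 85.2% of its UMIs in cones, rose by 1.95 (adjusted p = 0.0137). Cones numbered 14 of 925, 13 of 787 and 46 of 1493 cells in control and 113 of 2039, 96 of 1397 and 134 of 2312 cells in Phase I ROP mice, a higher share in every Phase I ROP mouse, and the part of this in the rise of Cckbr was not tested. Npy1r, a receptor of neuropeptide Y, fell by 1.40 (adjusted p = 0.00483). Tacr3, a tachykinin receptor with 63.5% of its UMIs in bipolar cells, fell by 0.79 (adjusted p = 0.0242), and was not called with total UMIs alone (−0.53, adjusted p = 0.120). Within bipolar cells the log2 difference of Tacr3 was −0.11 (adjusted p = 0.787 by edgeR with Benjamini-Hochberg adjustment), and within amacrine cells −0.69 (adjusted p = 0.282 in the same test). Bipolar cells numbered 298 of 925, 265 of 787 and 446 of 1493 cells in control and 347 of 2039, 252 of 1397 and 368 of 2312 cells in Phase I ROP mice, a lower share in every Phase I ROP mouse. With the ω-6 vs. ω-3 diet edgeR called 0 genes of these lists in amacrine cells and over the whole retina.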

How the data were processed

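The authors deposited raw UMI counts for each gene in each cell, which they made with the inDrop pipeline of bcbio-nextgen, umis and Rapmap on mouse transcripts of GRCm38 (mm10), leaving out barcodes of few reads. The study tested cells with MAST; here the UMIs of a class were added up within each mouse, and mice served as replicates. As in the study's methods, cells with more than 300 genes and genes in more than 10 cells were kept and clustered with Seurat 5.3.0 (2000 variable genes, 75 principal components, resolution 0.2), which gave 25 clusters, named from canonical markers. Amacrine cells were clustered again with 30 components at resolution 0.8. Every column of cells was matched to a sample, so 0 were left out. Total UMIs per mouse are given with the results, and intervals cover counting error only.

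Classes with at least 10 cells in every mouse of a comparison, and the whole retina, were tested with edgeR 4.0.16 (quasi-likelihood, TMM scaling, default filter on low counts, Benjamini-Hochberg adjustment over all genes, threshold 0.05) in R 4.3.3, each comparison being fitted on its own 2 groups. The methods describe the mice of a comparison as littermates, and p-values measure the spread between these mice only. The methods also kept litters of STZ mice smaller than those of other mice, and the diets were fed to nursing dams. How litters were divided between the groups is not given, so effects of litter or dam cannot be told apart from treatment or diet. Shares of cells were compared by a two-sided exact permutation test over mice in Python 3.11.15 (scipy 1.17.1). Likeness was Pearson's r of log2(CPM + 1) across sub-clusters, for genes with at least 100 amacrine UMIs. The edgeR fit was tested on simulated data. Scrublet in scanpy 1.11.5 marked 0.374% of cells as doublets, too few to rely on, so an alternative left out the 5% of cells with the highest scores.

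The members and lists were chosen with earlier results of these data known. The text names the 10 members and, of the other lists, at most 4 genes per list and direction by adjusted p in amacrine cells, plus called receptors. For each member with enough UMIs it names the 3 most similar genes, except for items that are not reported here. Alternatives were DESeq2 1.42.0, other scalings and filters, 1 fit of all groups, a replicate block, other class and doublet rules, other thinning depths and resolutions, and each mouse left out in turn. Horizontal, ganglion and rarer classes were not tested.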

Additional observations from a re-analysis of the deposited data

Results flagged for a closer look

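Penk in amacrine cells was looked at again because its 2 main sub-clusters differed in opposite directions in Phase I ROP vs. control. In sub-cluster 13, led by A930001A20Rik, Slc17a8 and Adh6b, the control mice held 12, 7 and 4 Penk UMIs and the Phase I ROP mice 7, 1 and 4. As CPM of the sub-cluster, the mean fell by 293, from 453 ± 158 to 160.0 ± 97.1 (SD, n = 3 each), without overlap, as did 16.2% of 691 genes there. In sub-cluster 1, led by Tshz1, Zfhx3 and Pcdh17, no Penk was counted in the 23, 14 and 28 cells of the control mice, while the Phase I ROP mice held 6, 2 and 2 UMIs in 2, 1 and 1 cells. The mean difference there was 41.4 CPM, against 15.9% of 7150 genes higher in all Phase I ROP mice. The difference between the sub-clusters was not tested, the sub-clusters were picked for holding Penk, and each value rests on a handful of molecules.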

How the results depend on the processing

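In amacrine cells the log2 difference of Cartpt in Phase I ROP vs. control ranged from −3.20 to −1.92 over the main setting and its alternatives, and that of Npy from −1.34 to −0.70, and both were called in each (adjusted p up to 0.00448 and 0.0185, edgeR or DESeq2 with Benjamini-Hochberg adjustment). Of the counts of members called and the other main values, 205 stayed within 1.5 times the main value or their spread and 7 moved. Some of the 205 could hardly move. The exact permutation tests of shares cannot fall under 0.05 with these numbers of mice. In bipolar cells, rods and cones no member passed the default filter in Phase I ROP. The tally is therefore no measure of robustness. With no filter on low counts, 4 members were called in amacrine cells (Cartpt, Cck, Npy and Vip) and 1 in Müller glia (Penk) in Phase I ROP. The main fits already called 38.8% of amacrine genes and 10.8% of Müller glia genes. Of the 88 glial Penk UMIs, 40 came from Phase I ROP replicate 3. For the diets in amacrine cells, 1 member (Tac1) was called with DESeq2, with no filter and with the replicate block, and 1 (Tac1) over the whole retina with the replicate block. The main diet fits called 0.0% of genes in both. The shares of all genes called with no filter and with the replicate block are not given here. The largest Tac1 share of a sub-cluster was 38.6% at resolution 1.5. Tac1 in amacrine cells of Phase I ROP was called with classes by marker score (−0.95, adjusted p = 0.0284 by edgeR) and without the cells of highest doublet score (−0.83, adjusted p = 0.0308 by edgeR). The causes were not tested.

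The replicate numbers are shared by the groups, but same-numbered mice did not deviate together throughout in Phase I ROP (correlations from −0.0573 to 0.154). Over the 2 shared numbers of the diets the correlations were low and all above 0 (0.0462 to 0.273). Nothing says that a number marks a litter or day, so whether these mice share more than a number is not known. With the replicate block, Tac1 for the diets was 1.14 in amacrine cells (adjusted p = 0.000291 by edgeR). Over the whole retina it was 1.36 (adjusted p = 7.61e-06 by edgeR). In that fit the mouse whose number had no partner on the other diet formed a block of its own. The difference between the diets thus came from the 2 shared numbers alone, too few to judge it. No conclusion is drawn from these adjusted p-values, and the number of genes called in that fit is not given here. The block reversed Npy (−0.10) and Penk (0.084) in amacrine cells and Penk (−0.15) over the whole retina for the diets, none of them called.

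Other reversals were of values that passed no test. Total UMIs as the scaling turned Penk in Phase I ROP to 0.26, and marker score classes turned Cartpt for the diets to −0.011. Thinning to 500 UMIs turned the difference in the share of amacrine cells in Phase I ROP to −1.49 percentage points for Npy and −0.386 for Tac1, and for the diets to −0.168 for Cartpt. Without thinning it was −0.247 for Tac1 in Phase I ROP and −0.164 for Cartpt with the diets. Leaving out each mouse in turn gave log2 differences for Penk in Phase I ROP from −0.37 to 0.32 in amacrine cells and from −0.54 to 1.22 over the whole retina. For the diets it gave −0.10 to 0.43 (Cartpt), −0.19 to 0.75 (Npy) and −1.17 to 2.59 (Penk) in amacrine cells, and −0.21 to 1.37 (Penk) and −0.53 to 0.13 (Vip) over the whole retina. Share differences in percentage points ran from −1.63 to 0.133 (Cartpt), −1.19 to 0.841 (Npy) and −0.205 to 0.595 (Vip) in Phase I ROP, and from −2.12 to 0.257 for Npy with the diets. In sub-cluster 2 the Phase I ROP differences ran from −170.2 to 112 CPM for Cartpt and from −276 to 148 CPM for Npy. Sst, Cck, Crh, Gal and Adcyap1 had the fewest UMIs of the 10 members and were tested in few classes or none. The parts of depth and of the number of captured cells in this were not tested.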
